A study of Mus musculus with 3 samples.

Results

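Il1a, Il1b, Il33, Il18 and Il1rn encode the interleukin-1 (IL-1) family cytokines described here, and they were chosen by name. They are 5 of the 32287 features counted in 1 culture of mouse esophageal cells. Their unique molecular identifiers (UMIs, each marking 1 captured transcript) were summed over 14925 of 18116 cell barcodes, those that reached 500 genes and 1000 UMIs and did not exceed 20% mitochondrial UMIs. Of the 5, Il1a had the most UMIs, followed by Il33, Il1rn and Il18, and Il1b was almost absent, with 2 UMIs in the whole culture. A cluster of 1545 epithelial cells led by Ltf and Gabrp held 70.0% of the Il33 UMIs, and Il1a and Il1rn were also high there. Outside this cluster the level of Il33 was below that of Il1rn.

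The culture, called PC and labelled as esophageal cancer, began as esophageal organoids from mice homozygous for a floxed Trp53 allele. Adenoviral Cre with EGFP deleted Trp53, Cdkn2a was knocked out with CRISPR/Cas9, and the cells expressed Cas9 constitutively and carried a transfected barcode library. They grew in DMEM with 10% FBS, first with the ROCK inhibitor Y-27632, and live RFP-positive cells were sorted after 3 passages. The labels list 3 libraries from this culture (PC GEX, PC barcodes and PC Scar, 1 sample each), and the matrix does not say which of them supplied the reads. It was therefore treated as 1 pooled sample with no wild-type control, no second condition and no replicate, so no p-value is given. Every interval is a 95% interval that covers counting error only.

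IL-1 alpha (Il1a), IL-1 beta (Il1b), IL-33 (Il33) and IL-18 (Il18) are made without a classical secretion signal. IL-1 alpha and IL-33 are held in the cell, largely in the nucleus, and act as alarmins when a damaged cell releases them. IL-1 beta and IL-18 are made as precursors that caspase-1 cuts in the inflammasome. IL-1 alpha and IL-1 beta share the receptor Il1r1, whereas the receptor antagonist (Il1rn) binds it without signalling and is no alarmin. IL-33 binds Il1rl1, also called ST2, and IL-18 binds Il18r1 with Il18rap. In squamous epithelium such as the esophagus, keratinocytes are a known source of IL-1 alpha, the antagonist, IL-33 and IL-18, while IL-1 beta is known best from myeloid cells.

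Il1a and Il1b lie close together on chromosome 2 of mouse genome build GRCm38 (GENCODE M21), both on the minus strand. Il1a (ENSMUSG00000027399) spans chr2:129299610-129309972 with 7 exons, and Il1b (ENSMUSG00000027398) spans chr2:129364570-129371139, also with 7 exons. The gap between them is 54.6 kb and holds 2 other annotated genes. Il1rn (ENSMUSG00000026981) lies apart on the same chromosome, at chr2:24336853-24351494 on the plus strand, with 4 exons. Il33 (ENSMUSG00000024810) is at chr19:29925114-29960718 with 8 exons, and Il18 (ENSMUSG00000039217) at chr9:50554827-50581840 with 5 exons, both on the plus strand. Il1a overlaps Gm14023 on the other strand (79 UMIs), Il1b overlaps Il1bos (2 UMIs), and Il18 overlaps Bco2 (55 UMIs) and Tex12 (1 UMI). Whether the counting used strand is not given in the sources used here, so reads of these overlapping genes may not be fully separated.

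The promoters below are shown because the nearby genes Il1a and Il1b differed most in transcript level, and because Il33 was highest, and Il1a high, in the same epithelial cluster. Each is the 250 bases before a RefSeq transcription start (GRCm38.p6), written 5′ to 3′ on the gene's own strand. Capitals mark matches to the AP-1 motif TGANTCA or to TATAAA, searched on both strands. The windows are chr2:129309973-129310222 (minus) for Il1a, chr2:129371140-129371389 (minus) for Il1b, and chr19:29924863-29925112 and chr19:29945540-29945789 (plus) for the first and the other start of Il33.
Il1a: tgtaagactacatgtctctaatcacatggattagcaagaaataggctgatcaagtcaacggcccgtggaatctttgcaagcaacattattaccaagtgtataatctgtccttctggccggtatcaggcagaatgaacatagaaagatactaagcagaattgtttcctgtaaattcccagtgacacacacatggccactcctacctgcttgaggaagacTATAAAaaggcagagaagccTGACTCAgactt
Il1b: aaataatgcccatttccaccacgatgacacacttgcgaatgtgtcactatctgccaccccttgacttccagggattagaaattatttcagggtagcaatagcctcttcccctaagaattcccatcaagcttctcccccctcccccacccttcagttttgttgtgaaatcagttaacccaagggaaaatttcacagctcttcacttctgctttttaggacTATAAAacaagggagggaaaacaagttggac
Il33 first start: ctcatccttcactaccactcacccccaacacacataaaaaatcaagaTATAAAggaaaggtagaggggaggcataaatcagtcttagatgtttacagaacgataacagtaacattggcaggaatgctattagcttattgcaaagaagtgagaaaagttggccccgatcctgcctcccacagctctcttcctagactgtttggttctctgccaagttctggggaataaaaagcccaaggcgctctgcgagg
Il33 other start: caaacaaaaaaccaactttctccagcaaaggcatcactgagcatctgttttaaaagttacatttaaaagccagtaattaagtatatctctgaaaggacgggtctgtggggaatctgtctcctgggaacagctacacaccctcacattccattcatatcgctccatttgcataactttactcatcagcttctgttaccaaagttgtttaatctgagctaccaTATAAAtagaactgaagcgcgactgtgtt

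The Il1a window holds TGACTCA beginning 12 bases before the start and TATAAA beginning 32 bases before it. The Il1b window has TATAAA 31 bases before the start and no match to TGANTCA. Both Il33 windows have TATAAA, 203 bases before the first start and 29 bases before the other. Of 32851 RefSeq promoter windows of the same length, 6.75% hold TGANTCA and 12.4% hold TATAAA. The NF-kB consensus, in 7.25% of all windows, was not matched in any window of the 5 genes. A match is only a match of letters, and the data do not show which start the cells used.

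Il1a was the most abundant of the 5 transcripts, with 3533 UMIs or 77.7 CPM (UMIs per 1000000 UMIs, interval 75.2 to 80.4). It was found in 2530 cells, 17.0% of them, and up to 18 UMIs were counted in 1 cell. Il33 followed with 2554 UMIs, 56.2 CPM (54.04 to 58.4), but these sat in only 1219 cells, 8.17%. Il1rn had 2111 UMIs, 46.5 CPM (44.5 to 48.5), in 1740 cells, 11.7%. Il18 had 1022 UMIs, 22.5 CPM (21.1 to 23.9), in 942 cells, 6.31%. These values are for 3′ transcript ends and were not scaled by gene length, so the order between genes is that of UMIs and not of molecules per length.

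Il1b had 2 UMIs, 0.0440 CPM (0.00533 to 0.159), in 2 of 14925 cells. No further Il1b UMI lay in the barcodes that were filtered out. Il1a gave 1766.5 UMIs for each Il1b UMI (489 to 14592). The cell in cluster 2 with an Il1b UMI had none of Il1a, and the one in cluster 6 had 2 UMIs of Il1a and 4 of Il33. Il1b was therefore at the limit of detection, where 3 UMIs would be 0.0660 CPM, and it could not be described by cell type.

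Il33 was concentrated in few cells, while Il18 was spread thinly. The 150 cells richest in Il33 held 37.5% of its UMIs, against 16.9% for Il1a, 18.2% for Il1rn and 22.5% for Il18 in their own 150 richest cells. Cells with at least 5 UMIs numbered 106 for Il33 and 33 for Il1a. Of the cells with any UMI of a gene, 92.1% had just 1 for Il18, 83.5% for Il1rn, 73.9% for Il1a and 57.4% for Il33. After each cell was thinned to 1500 UMIs, the variance divided by the mean was 2.15 for Il33, 1.29 for Il1a, 1.10 for Il1rn and 1.04 for Il18. The median over 7616 genes was 1.02 and the 95th percentile 1.29.

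**Figure D1:**
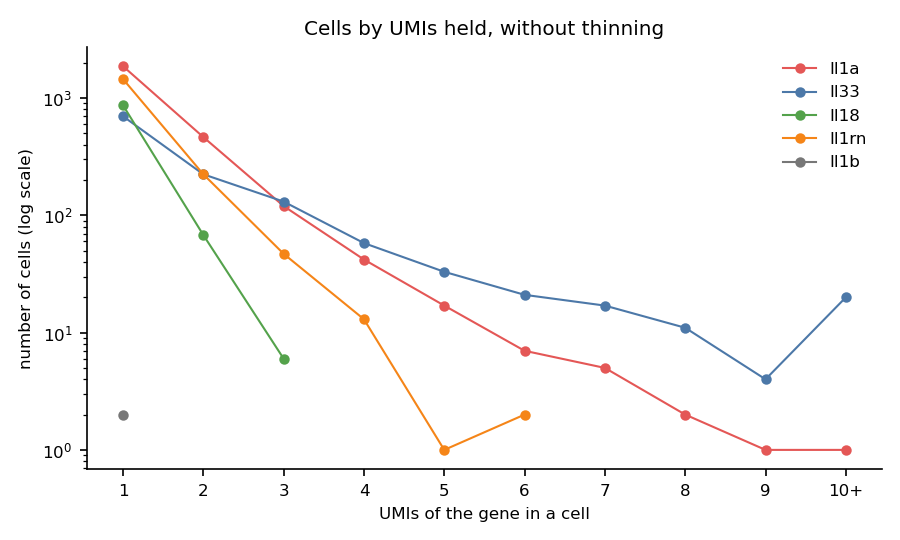
Number of cells (log scale) by the number of UMIs of each gene in the cell, in 14925 cells without thinning, with 10 or more UMIs in the last position. Il33 keeps 20 cells at 10 or more UMIs, Il18 ends at 3 UMIs, and Il1b has only 2 cells with 1 UMI.

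Cells with a UMI were somewhat deeper than cells without. Their median totals were 3505 against 2847 UMIs for Il1a, 3420 against 2916 for Il33, 3406 against 2895 for Il1rn and 3273.5 against 2938 for Il18. At the common depth of 1500 UMIs, the shares of cells with a UMI were 9.57% for Il1a, 6.57% for Il1rn, 5.49% for Il33 and 3.46% for Il18, over 13281 cells. The 1644 cells with fewer UMIs were left out of these shares. Il1rn was thus found in more cells than Il33 although it had fewer UMIs.

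The cells were grouped by their transcriptomes without using the 5 genes or 68 genes of their pathway. The 9 clusters are numbered by size. Clusters 1, 2, 4, 5 and 6 formed an epithelial class of 12167 cells, each with at least 6 of 8 basal markers such as Krt5 in 25% or more of the cells. Cluster 1 (3887 cells) was led by Krt7, Sorbs2 and Grm8. Cluster 2 (3032 cells) was led by Wfdc18, Ccl9, Ucp2, Gm29904 and Prl2c3, and cluster 5 (1767 cells) by Ch25h, Prl2c2, Prl2c3, Cxcl5 and Ccl2. Cluster 4 (1936 cells) was cycling-like, with Mki67 and Top2a. Cluster 6 (1545 cells) was led by Ltf, Gabrp, Lcn2, Il33 and Aldh1a3, so Il33, although left out of the clustering, was itself among its leading genes. Outside this class, cluster 3 (1947 cells) was mesenchymal-like, with Vim and Col5a1, and cluster 8 (131 cells) was simple-epithelial-like, with Krt7 and Ly6c1. Cluster 7 (662 cells) was shallow, at a median of 1187.5 UMIs against 2068 to 3701.5 in the epithelial clusters, and had 10.4% mitochondrial UMIs. Cluster 9, with 18 cells, is not described further.

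Markers of leukocytes, the textbook source of IL-1 beta, were almost absent. The pan-leukocyte gene Ptprc had 1 UMI and the macrophage gene Lyz2 had 1, while Adgre1, Tyrobp, Csf3r and H2-Aa had 0. Summed over 6 leukocyte markers there were 184 UMIs, 164 of them from Coro1a, and 10 myeloid markers gave 438, of which 339 were from Cd68. By cluster the myeloid sum ran from 2.31 to 18.5 CPM over clusters 1 to 8 and was 10.7 CPM in cluster 6. Of 4 mast cell markers, Kit had 1549 UMIs, Mcpt4 8, Cpa3 1 and Fcer1a 0. Cdh5, Emcn and Cldn5 were at 0 among 6 endothelial markers, which summed to 69 UMIs. RNA free in the droplets was gauged with Vim, which had a UMI in 91.3% of mesenchymal-like cells and in 0.194% to 2.48% of cells of the epithelial clusters. For Krt5 the share was 87.0% in cluster 2, whose median depth was 3146 UMIs, and 9.30% in the mesenchymal-like cluster 3, at 3355 UMIs. What free RNA adds to the lowest levels below was not tested.

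For the comparison of each cluster with all other cells, a gene was called where its levels differed 2-fold or more, the higher one reached 10 CPM and the intervals were apart. The 5 genes in clusters 1 to 8 gave 40 comparisons, of which 4 were called higher, 9 lower and 27 neither. Il1b, never near 10 CPM, is among the last in every cluster. Cells of 1 culture are not replicates, so these calls describe this culture only.

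Il1a, the intracellular alarmin that signals through Il1r1, was found in every cluster. It was highest in the simple-epithelial-like cluster 8 at 245.0 CPM and in cluster 6 at 217.2 CPM. It was lowest in cluster 1 at 31.8 CPM and cluster 2 at 40.1 CPM. In between lay the shallow cluster 7 at 109.6 CPM, the mesenchymal-like cluster 3 at 92.7 CPM, cluster 5 at 88.2 CPM and the cycling-like cluster 4 at 55.2 CPM. Cluster 8 was 7.70-fold above cluster 1 (6.16 to 9.57). Neighbours in this order that did not differ beyond counting error were clusters 8 and 6, 7 and 3, and 3 and 5. The thinned shares of cells gave 30% in cluster 8 and 23.9% in cluster 6, down to 4.17% in cluster 1. Although cluster 8 had the highest level, it held 3.37% of the Il1a UMIs because it is small, against 29.2% in cluster 6.

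Il33, the nuclear alarmin that signals through ST2, had a far more uneven pattern. Cluster 6 stood at 376.3 CPM, and the next, the cycling-like cluster 4, at 32.9 CPM, a ratio of 11.4 (9.99 to 13.1). The remaining clusters lay between 6.97 CPM in cluster 1 and 21.7 CPM in cluster 2. Cluster 6 was 53.99-fold above cluster 1 (41.9 to 70.7), and neighbours among clusters 2, 7, 5, 8 and 3 did not differ beyond counting error. Clusters 2 and 3 themselves had intervals apart, at 18.9 to 24.9 and 11.9 to 17.8 CPM. Even in cluster 6, Il33 was in 42.9% of the cells without thinning, where 882 cells had none, and in 31.7% at 1500 UMIs. Its variance-to-mean ratio there was 2.001 at 1500 UMIs. Without thinning, 96 of the 106 cells with at least 5 Il33 UMIs were in cluster 6. In the other clusters the thinned shares were 1.03% to 3.15%.

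Il18, the precursor cut by caspase-1, varied least among the 4 detected genes. It ran from 43.2 CPM in cluster 8 and 38.5 CPM in cluster 6 through 29.2 CPM in cluster 1 to 13.9 CPM in the mesenchymal-like cluster 3. The highest was 3.11-fold above the lowest (1.84 to 5.03). Cluster 1, the poorest in Il33 and Il1a, thus came next after clusters 8 and 6 for Il18 and held the largest part of its UMIs, 25.4%. Cluster 8 and cluster 6 did not differ beyond counting error, nor did neighbours among clusters 4, 2, 5, 7 and 3. Clusters 4 and 3 themselves had intervals apart, at 18.3 to 25.1 and 11.2 to 17.0 CPM.

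Il1rn, the antagonist, was highest in cluster 6 at 133.4 CPM, followed by cluster 8 at 80.3 CPM and cluster 5 at 53.8 CPM. Clusters 2, 4, 1, 7 and 3 lay between 37.0 and 24.1 CPM, and neighbours among them did not differ beyond counting error. The ends of this group did, with intervals of 33.3 to 41.0 CPM in cluster 2 and 20.5 to 28.1 CPM in cluster 3. Cluster 6 was 5.54-fold above the mesenchymal-like cluster 3 (4.65 to 6.62). The thinned shares were 15.5% in cluster 6 and 14.6% in cluster 8, and 3.75% in cluster 3.

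**Figure D2:**
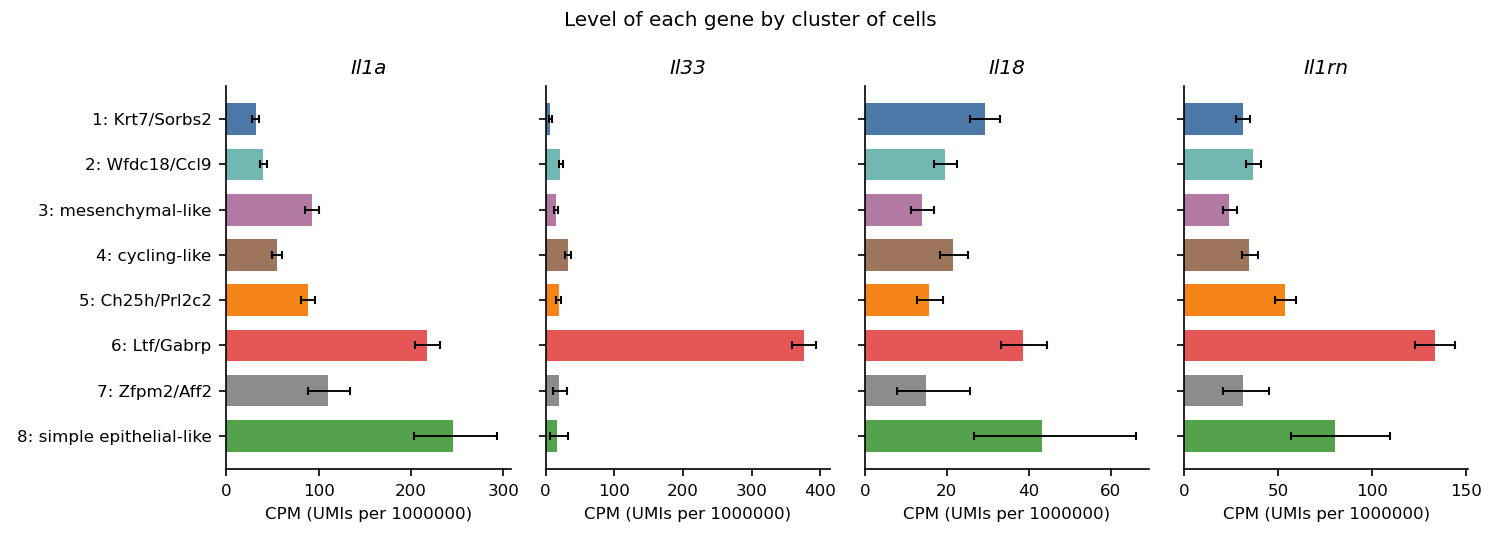
Level in CPM of Il1a, Il33, Il18 and Il1rn in clusters 1 to 8, each panel with its own axis from 0; bars are summed UMIs and error bars 95% Poisson intervals. Il33 stands at 376.3 CPM in cluster 6 and at no more than 32.9 CPM elsewhere, whereas Il1a is high in clusters 6 and 8.

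Cluster 6 had 3 of the 4 called increases. Against all other cells Il33 was 19.99-fold higher (18.4 to 21.8, 376.3 against 18.8 CPM), Il1rn 3.68-fold (3.34 to 4.04, 133.4 against 36.3 CPM) and Il1a 3.53-fold (3.28 to 3.80, 217.2 against 61.5 CPM). Il18, at a ratio of 1.87 (1.58 to 2.19), stayed under the required size. Of all genes tested in this comparison, 3.36% were called higher and 5.80% lower. These 3 genes also kept their calls with the cells reclustered or filtered in other ways, with Il33 between 17.1-fold and 22.1-fold.

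Cluster 8 gave the remaining increase, Il1a at 3.23-fold (2.66 to 3.87), in a comparison with 6.05% of genes higher and 6.21% lower. With all deposited barcodes cluster 8 was not recovered on its own. Its best match was the cluster also matched to cluster 5, where the Il1a ratio was 1.13 and not called. In cluster 8 itself Il33 was called lower, at a ratio of 0.291 resting on 8 UMIs. Its Il18 and Il1rn ratios were 1.94 and 1.74 and were not called. This small cluster thus had much Il1a without the Il33 of cluster 6.

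The 9 decreases were mostly those of Il33, against a set of other cells that includes cluster 6. In cluster 1 Il33 (ratio 0.102) and Il1a (0.358) were lower, where 3.71% of genes were. In cluster 2 the ratios were 0.332 for Il33 and 0.456 for Il1a, with 5.17% of genes lower. The mesenchymal-like cluster 3 had Il33 at 0.231 and Il1rn at 0.479, with 10.2% lower. Il33 was also called lower in cluster 5 (0.306), with 4.06% of genes lower and 0.311% higher, and in the shallow cluster 7 (0.345), with 27.4% lower and 34.3% higher. The cycling-like cluster 4 had no call among the 5 genes, with 5.68% of all genes higher and 3.52% lower.

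The balance of antagonist to agonist differed between cell groups. Over all cells there were 0.598 Il1rn UMIs for each Il1a UMI (0.566 to 0.631). Clusters 1 and 2, with little of either, came close to parity at 0.986 (0.833 to 1.17) and 0.923 (0.797 to 1.07). Cluster 6, where both were high, had 0.614, near the 0.610 of cluster 5 and the 0.631 of cluster 4. The lowest ratios were in the mesenchymal-like cluster 3 at 0.260 (0.217 to 0.309), the shallow cluster 7 at 0.284 (0.178 to 0.440) and cluster 8 at 0.328 (0.222 to 0.474). Clusters 3 and 8 reached this differently, the former with Il1rn at the low end and the latter with the highest Il1a level.

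**Figure D3:**
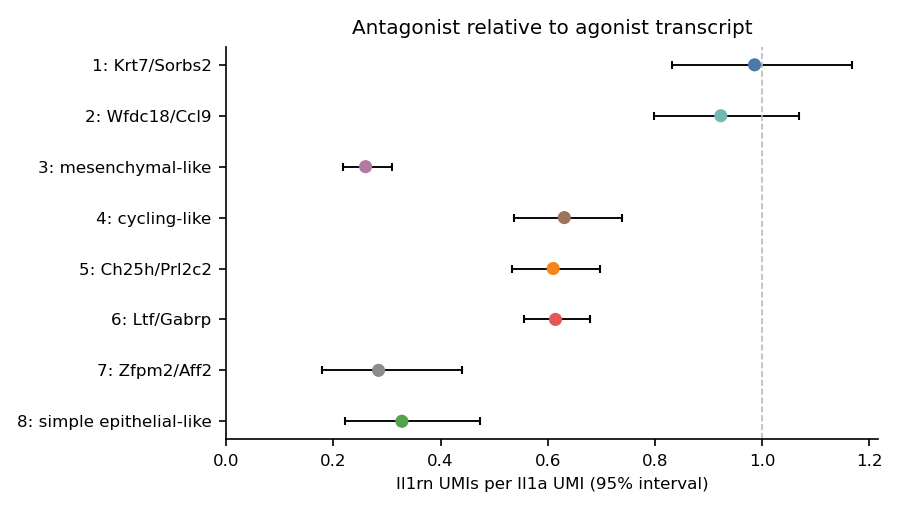
Il1rn UMIs per Il1a UMI in clusters 1 to 8 with exact 95% intervals; the dashed line is a ratio of 1. Clusters 1 and 2 lie near the line, clusters 4 to 6 near 0.6, and clusters 3, 7 and 8 between 0.260 and 0.328.

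Mesenchymal-like and epithelial cells, the broadest division of the culture, differed in Il33 and Il1rn but much less in Il1a. Il33 was 14.6 CPM in mesenchymal-like and 65.2 CPM in epithelial cells, a ratio of 0.225 (0.182 to 0.275), and was called lower. Il1rn, at 24.1 against 50.5 CPM, was also called lower, with a ratio of 0.478 (0.405 to 0.561). Il18, at 13.9 against 23.97 CPM (0.580), and Il1a, at 92.7 against 72.1 CPM (1.29, 1.18 to 1.40), were not called. Of all genes tested, 10.5% were called higher and 9.88% lower. Both calls depended on cluster 6, as seen after the clusters were known. Without it the epithelial levels were 19.7 CPM for Il33 and 38.3 CPM for Il1rn, the ratios 0.742 (0.594 to 0.918) and 0.629 (0.531 to 0.741), and neither was called, with 9.73% of genes lower. Il1a then stood 1.82-fold higher in mesenchymal-like cells (1.66 to 1.997), still uncalled, with 10.4% of genes higher.

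Within clusters, Il1a, Il33 and Il1rn were found in the same cells somewhat more often than their shares give if unrelated. Il33 and Il1rn were together in 122 cells thinned to 1500 UMIs against 86.4 from the shares, a ratio of 1.41 (1.17 to 1.69). Il1a and Il33 were together in 167 cells against 131.6, 1.27 (1.08 to 1.48), and Il1a and Il1rn in 135 against 107.9, 1.25 (1.05 to 1.48). With at least 1000 genes and 2000 UMIs per cell, the last 2 ratios were 1.18 (0.993 to 1.39) and 1.12 (0.918 to 1.34), with intervals that include 1. Without the 10% highest doublet scores, that of Il1a and Il1rn was 1.12 (0.917 to 1.36). The ratio of Il33 and Il1rn went as low as 1.23 over 8 alternative settings. For Il18 the ratios were 1.10 with Il1a, 1.07 with Il1rn and 1.03 with Il33, all with intervals that include 1. With Il1a it was 1.36 (1.04 to 1.75) in cells of at most 10% mitochondrial UMIs and 1.24 (1.08 to 1.41) without thinning, where that with Il33 was 1.24 (1.03 to 1.48). In cluster 6, 55.3% of the thinned cells had at least 1 of the genes and 252 of 1440 cells had 2 or more. Over all clusters 423 of 13281 cells had 2 or more, and 78.5% had none.

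A finer division into 36 clusters of at least 50 cells showed the same sharing across cell groups. Over these, the Pearson correlation of log2(CPM + 10) was 0.77 for Il33 and Il1rn, 0.69 for Il1a and Il1rn and 0.69 for Il1a and Il33. Il18 stood apart, at 0.07 with Il1a, 0.26 with Il33 and 0.32 with Il1rn. These points come from 1 library and differ in depth, so the correlations are descriptions. The fine cluster highest in Il33, 656 cells inside cluster 6, had 532.2 CPM of Il33 with 241.2 CPM of Il1a. The next, 373 cells mostly of cluster 6, had 355.1 and 243.7 CPM. Another, of 233 cells, 49.8% of them from cluster 5, was led by Lcn2, Gabrp and Cxcl2 and had 179.3 CPM of Il33, 256.6 of Il1a and 165.8 of Il1rn. At the other end were fine clusters of 726 and 503 cells, both in cluster 1, with 14.4 and 14.0 CPM of Il1a. The fine clusters mainly in the cycling-like cluster 4 were uneven in Il33. The one of 410 cells had 95.4 CPM, and the others ran from 3.33 to 28.5 CPM.

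**Figure D4:**
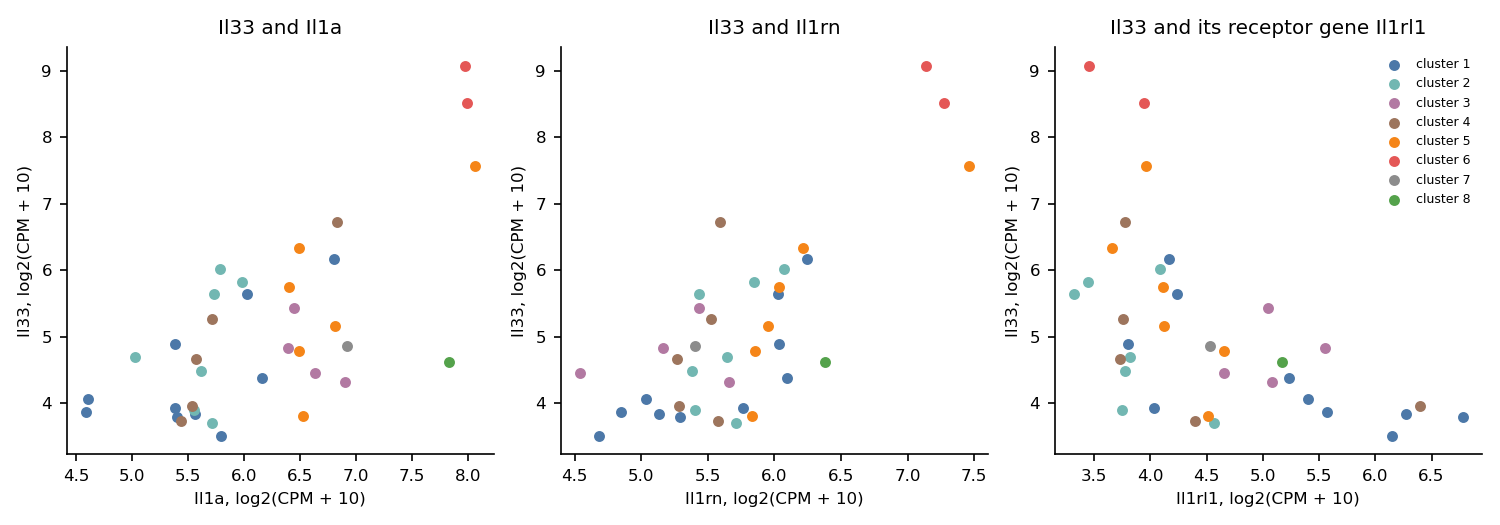
Il33 against Il1a, Il1rn and the receptor gene Il1rl1 over 36 fine clusters, each axis log2(CPM + 10), with 1 point per fine cluster in the colour of its main cluster. The 2 fine clusters of cluster 6 are at the top of each panel, and Pearson's r is 0.69, 0.77 and -0.55 from left to right.

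Of 6299 genes compared across the fine clusters, those most like Il1a were Cxcl1 (r = 0.80), a neutrophil chemokine, Dusp4 (0.78), a MAP kinase phosphatase, Ccl20 (0.77), a chemokine, Csf2 (0.76), which encodes GM-CSF, and Pim1 (0.74), a kinase. Those most like Il33 were Aldh3a1 (0.92), an aldehyde dehydrogenase, Gabrp (0.89), a GABA-A receptor subunit, Ltf (0.88), which encodes lactoferrin, Sat1 (0.86), a polyamine acetyltransferase, and Aldh1a3 (0.86), which makes retinoic acid. For Il1rn they were Lcn2 (0.87), which encodes lipocalin-2, Por (0.82), Gabrp (0.82), Krt19 (0.81), a simple-epithelial keratin, and Tnfaip2 (0.80). For Il18 the likeness was weaker, led by Cdkn1a (0.67), which encodes the cell cycle inhibitor p21, Krt7 (0.63), Elf3 (0.61), Phlda1 (0.61) and AW112010 (0.60).

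The receptor genes differed in their relation to their ligands. Il1rl1, which encodes ST2, had 807 UMIs and was highest in cluster 1 at 42.0 CPM, the cluster lowest in Il33, where it was 3.55-fold above all other cells (3.08 to 4.09). It was 4.42 CPM in cluster 6, the Il33-rich one, and 3.30 CPM in cluster 2, ratios of 0.229 and 0.152 that were both called lower. Over the fine clusters Il33 and Il1rl1 had a Pearson correlation of -0.55. For Il18 and Il18r1 it was 0.10, and for Il1a and Il1r1 0.17. In the fine cluster with the most Il33, 2 Il1rl1 UMIs were counted, but some fine clusters with far less Il33 had as few. Those of 335 and 379 cells, at 40.1 and 46.5 CPM of Il33, had 0 and 1.

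Il18r1, the ligand-binding chain for IL-18, had 1761 UMIs, and Il18rap, its partner, 506. Il18r1 was highest in the shallow cluster 7, at 113.1 CPM, 3.03-fold above other cells and called higher, as were 34.3% of all genes tested there. It was 65.7 CPM in cluster 5 and 48.2 CPM in cluster 1, but 5.92 CPM in mesenchymal-like cells, 0.137 times the epithelial level (0.0976 to 0.188) and called lower. Il18rap was also called lower there (ratio 0.455), and in cluster 6 (0.334). It was called higher in cluster 1, at 2.06-fold, in cluster 8, at 2.44-fold on 13 UMIs, and in the shallow cluster 7, at 3.71-fold on 34 UMIs. Of all genes tested, 0.699% were called higher in cluster 1, 6.05% in cluster 8 and 34.3% in cluster 7. Mesenchymal-like cells thus had low values of both Il18 and its receptor gene.

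Il1r1, the receptor for IL-1 alpha and IL-1 beta, was low throughout, with 380 UMIs. It ranged from 4.29 CPM in mesenchymal-like cells to 14.4 CPM in cluster 8. In clusters 1, 4, 7 and 8 it was tested and not called. In clusters 2, 3, 5 and 6 neither side reached 10 CPM, so it could not be called there. Its interval in mesenchymal-like cells, 2.87 to 6.16 CPM, lay below that over all cells, 7.54 to 9.25 CPM. Il1rap, the co-receptor shared by Il1r1 and ST2, had 863 UMIs and ran from 13.8 CPM in cluster 5 to 28.5 CPM in mesenchymal-like cells, apart from 76.2 CPM in the shallow cluster 7. Il1rl2, the IL-36 receptor, had 212 UMIs, and Sigirr, an inhibitory receptor of the family, 152, called higher in cluster 8 at 4.47-fold on 7 UMIs. The decoy receptor Il1r2 had 12 UMIs and Il18bp, the soluble inhibitor of IL-18, 29. Of the 9 receptor and decoy genes, 4 could be tested in cluster 6, where 0 were higher and 2 lower, against 3.36% and 5.80% of all genes.

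**Figure D5:**
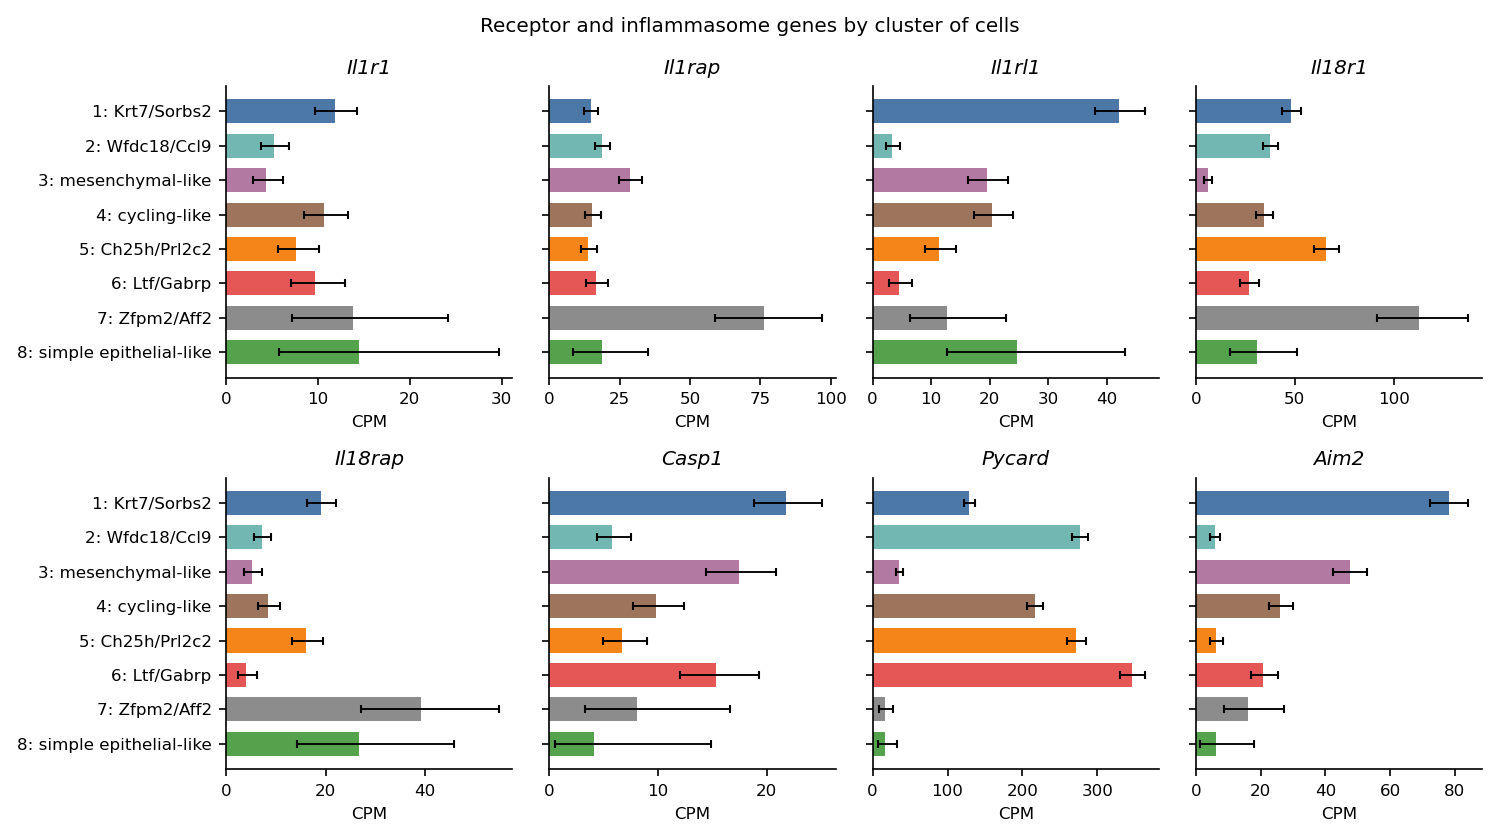
Level in CPM of receptor genes (Il1r1, Il1rap, Il1rl1, Il18r1, Il18rap) and inflammasome genes (Casp1, Pycard, Aim2) in clusters 1 to 8, with 95% Poisson intervals and an axis from 0 in each panel. Il1rl1 and Aim2 are highest in cluster 1, at 42.0 and 78.1 CPM, and Pycard is highest in cluster 6, at 346.6 CPM.

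Parts of the machinery that processes IL-1 beta and IL-18 were present. Pycard, the inflammasome adaptor ASC, had 9117 UMIs, with 346.6 CPM in cluster 6 and 35.2 CPM in mesenchymal-like cells, where its ratio to epithelial cells was 0.148 and called lower. Casp1, the protease that cuts both precursors, had 567 UMIs and was highest in cluster 1 at 21.8 CPM, 2.14-fold above other cells. Aim2, a sensor of cytosolic DNA, had 1429 UMIs and was also highest in cluster 1, at 78.1 CPM (3.89-fold), but lower in clusters 2 and 5 (ratios 0.153 and 0.176). Nlrp3, the sensor best known from macrophages, had 1 UMI, Nlrp1a 4 and Nlrp1b 0. Nlrc4 had 127 UMIs, and the pore-forming Gsdmd and Gsdme had 107 and 177. Casp4 and Casp8, further caspases of this pathway, had 1568 and 1759 UMIs. In cluster 1, Casp1, Aim2, Il18rap and Il1rl1 were all called higher, in a comparison where 0.699% of all genes were. Of the 15 processing and release genes, 9 were tested in cluster 6 and none was called.

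The other ligands of the family were scarce, and the 2 that could be tested were called higher in cluster 6. Il1f6 and Il1f9, which encode IL-36 alpha and IL-36 gamma, had 208 and 204 UMIs. In cluster 6 they were 19.8 and 22.1 CPM, 7.06-fold (5.32 to 9.36) and 9.08-fold (6.84 to 12.1) above other cells. The remaining genes of this list of 5, Il1f5, Il1f8 and Il1f10, had 4, 5 and 11 UMIs, and 9 of the Il1f10 UMIs were in mesenchymal-like cells. Il1f9 was also called higher in the shallow cluster 7, at 4.38-fold on 16 UMIs, where 34.3% of all genes tested were.

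A list of 18 genes taken as textbook NF-kB or IL-1 response genes was made with earlier results of these data known. Of these genes, 16 were tested in cluster 6. There 11 were called higher and 0 lower, against 3.36% higher and 5.80% lower of all genes, with a median log2 ratio of 1.65 against -0.08 over all genes tested. Lcn2, an iron-binding antimicrobial protein, was 21.5-fold higher, and Csf2 and Csf3, which encode GM-CSF and G-CSF, 7.58-fold and 5.62-fold. S100a9 (36.2-fold) and Saa3 (8.05-fold) rested on few cells, 37 and 9 of the 1545. The chemokines Cxcl2, Ccl20, Cxcl5, Ppbp and Cxcl1 were 4.59-fold, 3.43-fold, 3.04-fold, 2.60-fold and 2.24-fold higher, and the cytokine Tslp 3.24-fold. Ccl2, at 273.8 against 545.3 CPM (ratio 0.502), and Ptgs2, at 113.9 against 168.5 CPM (0.676), lay the other way and were not called. In cluster 1, which had the lowest Il1a and Il33, 0 of 14 tested were higher and 8 lower, against 0.699% and 3.71% of all genes, with a median of -1.30 against 0.02. Cluster 8, which had the highest Il1a, had 5 of 15 tested higher and 1 lower, against 6.05% and 6.21% of all genes. Its median was 0.23 against 0.09. These genes respond to many stimuli, and no gene of the list was measured with a cytokine added or blocked. Whether IL-1 acted on them was not tested.

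Mesenchymal-like cells, with Il1a but little Il33, split this list. Against epithelial cells 3 of 14 tested genes were higher and 9 lower, where 10.5% and 9.88% of all genes were, with a median log2 ratio of -1.43 against -0.02. Ptgs2, which encodes the prostaglandin synthase COX-2, was 5.57-fold higher, and the chemokines Ccl2 and Ccl20 4.31-fold and 3.03-fold. Lcn2 (ratio 0.120), Tslp (0.134), Ppbp (0.177), Icam1 (0.232) and Cxcl2 (0.286) were lower. Among 13 tested signalling genes, Irak2, a kinase downstream of the IL-1 receptors, was called higher at 3.47-fold and none lower. In cluster 6 the signalling call was Nfkbiz, an NF-kB cofactor, at 2.31-fold.

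Of 6 other released alarmins, Anxa1 was 2.63-fold higher in cluster 6 and Hmgb2 lower (ratio 0.387). The other cells in that comparison include the cycling-like cluster 4, which held 63.2% of all Hmgb2 UMIs at a level of 793.6 CPM. Cluster 6, with 84.6 CPM of Hmgb2, was close to clusters 1 (91.2), 2 (80.7), 5 (79.2) and 7 (77.3). Clusters 3 (116.2) and 8 (119.4) were somewhat higher. Anxa1 was lower in mesenchymal-like than in epithelial cells (0.263) and S100a4 2.14-fold higher. Hmgb1 and Hmgb2, chromatin proteins, were called higher in the cycling-like cluster 4, at 2.96-fold and 8.81-fold.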

How the data were processed

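One mouse esophageal culture was measured by droplet single-cell RNA sequencing using the 10x Genomics 3′ v2 chemistry, per the labels. The authors deposited a matrix of UMI counts (CellRanger 8.0.1 per the file headers), not normalized. The submitters' processing notes name mm10, Cell Ranger and Scanpy 1.8.2, and no source used here gives intron counting or the annotation release. The lowest barcode total was 500 UMIs. The matrix names none of the 3 libraries and was taken as 1 pooled sample, although the design assumed a gene expression library.

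Of 18116 barcodes, 3191 (17.6%) were removed by the filters. The median kept cell had 2955 UMIs and 1499 genes. Scrublet in scanpy 1.11.5 (expected rate 5%) called 1 of 14925 cells (0.0067%), too few for a working call, so no cell was removed as a doublet. Counts scaled to 10000 per cell and log-transformed were clustered with Leiden (igraph 0.11.9; 2000 variable genes, 30 components, 15 neighbours, resolution 0.6, fine resolution 3), leaving out 73 genes. A name ending in "-like" needed 3 markers raised at least 1.5-fold with detection in at least 5% of cells, 2 of them among the 10 leading genes. The marker lists were leukocyte, myeloid, mast cell, endothelial, basal, cycling, mesenchymal, hypoxic, simple epithelial, interferon-responding and differentiated squamous. Of these, cycling (8 of 8 markers raised), mesenchymal (8 of 12) and simple epithelial (5 of 8) named clusters 4, 3 and 8. Interferon-responding, hypoxic and differentiated squamous lists had at most 5, 3 and 4 markers raised in a cluster and named none, nor did basal (at most 4), mast cell (at most 1), leukocyte, myeloid and endothelial (0).

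CPM were computed here from summed counts, with exact Poisson, binomial or Clopper-Pearson 95% intervals (scipy 1.17.1). With 1 sample, no test was run. The calling step was checked on simulated counts of 8595 genes for cluster 6 against other cells. It called 63 of 63 genes changed 3-fold, 69 of 69 changed 5-fold, 0 of 68 changed 1.5-fold and 0 of 8395 unchanged. The simulated counts had Poisson error only and no change close to 2-fold. The check therefore shows that the rule runs as written and does not cover spread between cells beyond counting error. Gene positions came from GENCODE M21, which held 32158 of 32287 feature IDs, and promoters from RefSeq, which held all 5 genes.

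The members and lists were chosen with earlier results of these data known. The genes named are the 5 members, receptors and processing genes with at least 50 UMIs, up to 5 pathway genes with the largest called ratio per list and direction, the 5 genes most like a member over fine clusters (at least 20 CPM), the 5 highest and 5 lowest genes in cells with a UMI of it, and 5 leading genes per cluster. Genes named at lower counts or beyond 5 per list were named after their values were seen. Alternatives covered cell filters, doublet scores, CPM denominators, weighting, thinning, clustering and call rules.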

Additional observations from a re-analysis of the deposited data

How the results depend on the processing

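No paired analysis was possible because the values form 1 pooled sample. Over all cells, levels changed beyond counting error in few settings. With at least 1000 genes and 2000 UMIs, Il33 was 59.3 CPM. Without mitochondrial genes, GFP and Scar in the total, Il1a, Il33 and Il1rn were 82.6, 59.7 and 49.3 CPM, and as means of per-cell CPM, Il1a and Il33 were 73.5 and 51.6. The 13 calls became 20 at a ratio of 1.5 and ranged down to 9 at a ratio of 3, with 10 at the stricter minimum and 11 with all barcodes. Cluster 6 kept its calls for Il33 (17.1-fold to 22.1-fold), Il1a (3.39-fold to 3.92-fold) and Il1rn (3.12-fold to 3.89-fold) in 13 settings. Counting each gene in each cluster and setting as 1 case, 12 cases gained a call, 10 lost one and 2 turned the direction. The other 392 cases stayed the same. After reclustering, each cluster was followed to the new cluster that best overlapped it, so a ratio can come from partly other cells. Without a change of the call rule, the Il33 call was lost in cluster 7 (0.532) with all barcodes. In cluster 5 (0.688) it was lost without the highest doublet scores. The Il1a call in cluster 2 was lost at resolution 0.4 (0.681) and with another seed (0.744). Il1a was also uncalled at 1.13 for cluster 8 with all barcodes and at 0.639 for cluster 2 at the stricter minimum. In both cases the match was shared with cluster 5, so the cluster was not recovered on its own. Il33 turned to 1.06 in the match of cluster 7 with the stricter minimum and to 1.02 in that of cluster 5 with 20 components. Most cells of cluster 7, at a median of 1187.5 UMIs, fall below the 2000 UMIs of the stricter minimum. Between mesenchymal-like and epithelial cells, Il18 (0.580) was called at a ratio of 1.5 and Il1rn (0.478) was not called at 3. Without cluster 6, an alternative chosen after seeing the data, Il33 (0.742) and Il1rn (0.629) were not called. Co-detection without division into clusters was 2.39 for Il1a and Il33, 1.62 for Il1a and Il1rn and 2.55 for Il33 and Il1rn, since cells of different clusters are then mixed. At this depth 3 UMIs are 0.0660 CPM for any gene over all cells, and Il1b lay below that.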

Other observations

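Cells with a UMI of a cytokine also differed from cells of the same cluster without one, at 1500 UMIs per cell. Beside Il1a, Gabrp (1.84-fold), Slpi (1.82-fold), which encodes an antiprotease, Ltf (1.81-fold), Lcn2 (1.77-fold) and Prss22 (1.70-fold) were highest. Sema3d (ratio 0.546), Wfdc18 (0.646), Sorbs2 (0.682), Ctnnd2 (0.691) and Mir205hg (0.697) were lowest. Beside Il1rn, Slpi (1.80-fold), Lcn2 (1.68-fold), Gmfb (1.53-fold), Il33 (1.49-fold) and Morrbid (1.46-fold) were highest, and Msrb1 (0.679), Acta2 (0.680), Sox6 (0.689), Lsm7 (0.717) and Lsr (0.726) lowest. Beside Il18 the leading genes were others, Efna1 (1.65-fold), Rap2b (1.57-fold), Prss22 (1.55-fold), Dnajb11 (1.54-fold) and Atp2c1 (1.502-fold). The lowest there were Mrps34 (0.588), Ptgfrn (0.608), Smc4 (0.611), Ccn2 (0.636) and Usp3 (0.640). These are the extremes of many ratios and are descriptions.

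Beside Il33, the highest gene was Cenpm, which encodes a centromere protein, at 3.70-fold (3.05 to 4.44). Tmprss11g (2.36-fold), Plac8 (2.31-fold), Gabrp (2.25-fold) and AW112010 (2.14-fold) followed, and Prss23 (0.399), Prl2c3 (0.441), Fst (0.480), Ccl9 (0.501) and Ptprz1 (0.530) were lowest. Cenpm was 65.6 CPM in the cycling-like cluster 4 and 68.4 CPM in cluster 6, but at most 6.18 CPM in other clusters from 1 to 8. The proliferation genes Mki67 and Top2a, chosen after these values were seen, were 273.5 and 672.7 CPM in cluster 4 and 6.73 and 14.5 CPM in cluster 6. Within cluster 6 the 457 thinned cells with Il33 had 0.188 Cenpm UMIs per cell and the 983 without had 0.0549, a ratio of 3.43 (2.41 to 4.91). Mki67 there had 2 UMIs against 13, a ratio of 0.331 (0.0363 to 1.46). Within cluster 4, the 60 cells with Il33 had 5.84-fold more Cenpm (3.72 to 8.86), 11.6-fold more Gabrp (7.28 to 17.9) and 10.5-fold more Ltf (4.98 to 20.8) than the 1843 without. Mki67 and Top2a were at ratios of 0.924 (0.582 to 1.40) and 1.06 (0.818 to 1.36) there.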
